A study of Homo sapiens with 3 samples.

Results

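Co-depletion of Geminin and FoxO3 was compared with a control in MDA-MB-231 cells, an established line from a triple-negative breast tumour, with 1 RNA sequencing library on each side. The genes described are those with a mean of at least 1 FPKM (fragments divided by transcript length and library size) over these 2 libraries, which held for 13075 of the 48162 Ensembl genes in the files. Of the 13075, 12773 had an entry in GENCODE 29, which gave their symbols, and 11487 of those were protein-coding. The gene just inside the minimum, AC105460.1, had 1.41 FPKM in the control and 0.589 in the co-depletion, and the gene just outside it, SH3BP5-AS1, had 1.32 and 0.676. Among the 12773 genes with an entry, 157 were under 1 FPKM in the control and 303 in the co-depletion, so these passed through the library in which they were higher.

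The series held 3 libraries, titled as control, FoxO3 depletion and Geminin with FoxO3 depletion, and the FoxO3-depleted library is given beside the others for each gene. Cells of all 3 groups, control included, grew in DMEM with 10% fetal bovine serum, were exposed to lentivirus for 24 h and were harvested 72 h after the medium was replaced. Total RNA, 3 ug per library, was made into libraries with an Illumina TruSeq RNA kit. The sequence used for depletion, the vector in the control and the meaning of the number that ends both depletion titles are details not given in the sources used here, and no library of Geminin depletion alone was used. The cell line's markers were present: all 13 listed ones were measured, with VIM at 593 FPKM in the control library, 607 after FoxO3 depletion and 574 after co-depletion. ESR1, PGR and FOXA1, receptors and a factor of luminal breast cells that this line lacks, were below 1 FPKM in each library. PTPRC, a leukocyte marker, and DCN, a fibroblast marker, were at or near 0. Other genes on these lists did reach the minimum: 7 of 11 luminal genes, GATA3 among them, 4 of 11 leukocyte markers, CD14 among them, and 4 of 11 fibroblast markers, COL1A2 among them. The lists as a whole were therefore not absent.

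Geminin, the product of GMNN, binds CDT1 and keeps it from loading MCM helicases onto origins again within a cycle, and it is removed by the anaphase-promoting complex as cells leave mitosis. FoxO3 is a forkhead transcription factor that growth factor signalling through AKT keeps out of the nucleus, and its known targets include genes of cell cycle arrest, cell death and oxidative stress defence. Interferon-stimulated genes are switched on through interferon regulatory factors and their partners, which bind a short element in their promoters, and matrix genes encode the collagens, adhesive glycoproteins, crosslinking enzymes and proteases around and between cells.

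There was 1 library per side, so differences could not be set against a spread between replicates and carry no p-value. Differences are log2 ratios of FPKM + 1, co-depletion over control, which understate differences of genes with low values. Intervals are exact 95% Clopper-Pearson intervals of the FPKM ratio from reads recovered from the values. They cover counting error only and compare these libraries, not the conditions. No interval is given between the depleted libraries, so an order between them can lie within counting error. Depth behind the values was 14507410 reads in the control library, 10760613 after FoxO3 depletion and 12267332 after co-depletion.

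Both targets were lower in the library labelled as co-depleted. GMNN was 112 FPKM in the control library, 112 after FoxO3 depletion and 37.0 after co-depletion, a ratio to the control of 0.329 (95% interval 0.293 to 0.369). GMNN was therefore low in 1 of the 3 libraries, the one whose title names it. FOXO3 was 12.2 FPKM in the control library, 2.79 after FoxO3 depletion and 2.94 after co-depletion, a ratio of 0.241 (0.206 to 0.280), low in both depleted libraries. FOXO3 has a near-identical copy, FOXO3B, so its reads are uncertain by an unknown amount. DICER1, which encodes the RNase that cuts microRNA precursors, was 39.3, 14.8 and 17.9 FPKM in the same order, a ratio of 0.456 (0.419 to 0.495).

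Over the 12773 genes, 79 (0.618%) were at least 2-fold higher and 293 (2.29%) at least 2-fold lower in the co-depletion, and at 1.5-fold 504 (3.95%) were higher and 1580 (12.4%) lower. The median log2 ratio was -0.06, and 83.7% of the genes lay within 1.5-fold. In the following, "higher" and "lower" mean at least 1.5-fold unless a size is given. Of the 79, 12 passed the minimum of 1 FPKM only through the co-depletion, and of the 293, 42 only through the control. Lower genes made up 78.8% of those past 2-fold. The ratio moved with the base composition of the transcript: of the 1278 genes with the lowest GC content (median 39.0%) 504 were lower and 13 higher, their median log2 ratio being -0.48, and of the 1277 with the highest (median 63.8%) 36 were lower and 91 higher, their median being 0.09. After a running median of the ratio along GC content was subtracted, 92 genes (0.720%) were at least 2-fold higher and 132 (1.03%) lower, which put lower genes at 58.9% of those past 2-fold, and at 1.5-fold 586 (4.59%) were higher and 798 (6.25%) lower. The part of base composition in the differences was not tested, so counts after this adjustment are given beside the groups.

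**Figure D1:**
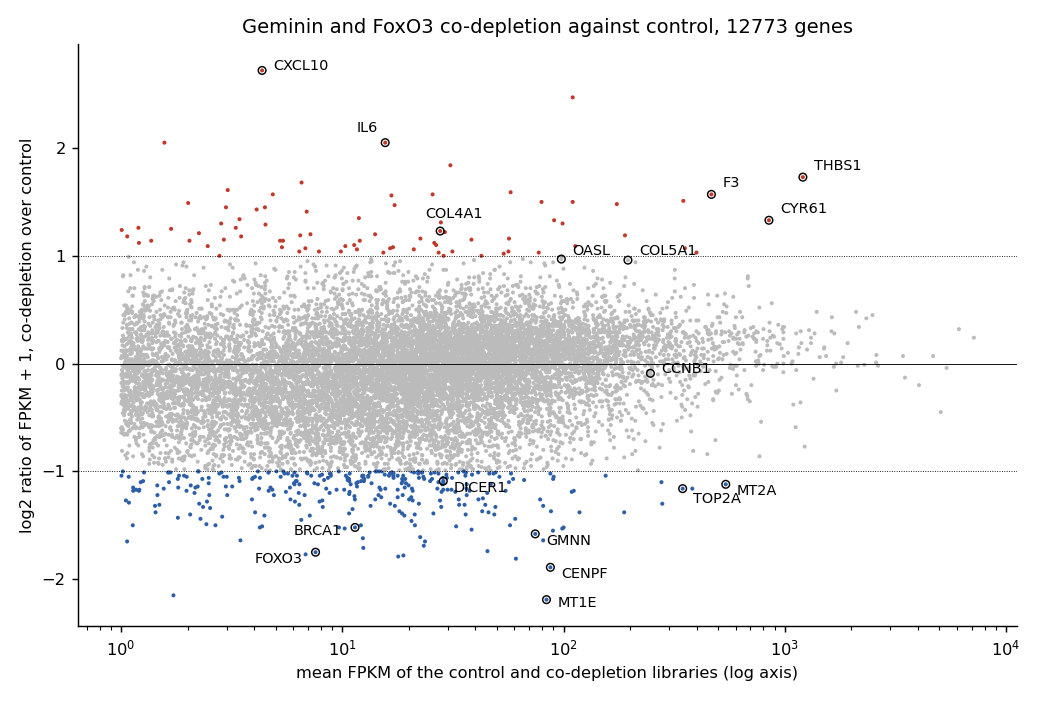
Each point is 1 of the 12773 genes, placed by its mean FPKM over the control and co-depletion libraries (log axis) and its log2 ratio of FPKM + 1. Red and blue points are at least 2-fold higher (79 genes) and lower (293 genes), dotted lines mark 2-fold, and ringed genes are named in the text; CCNB1, near 0, lies among the grey points.

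**Figure D2:**
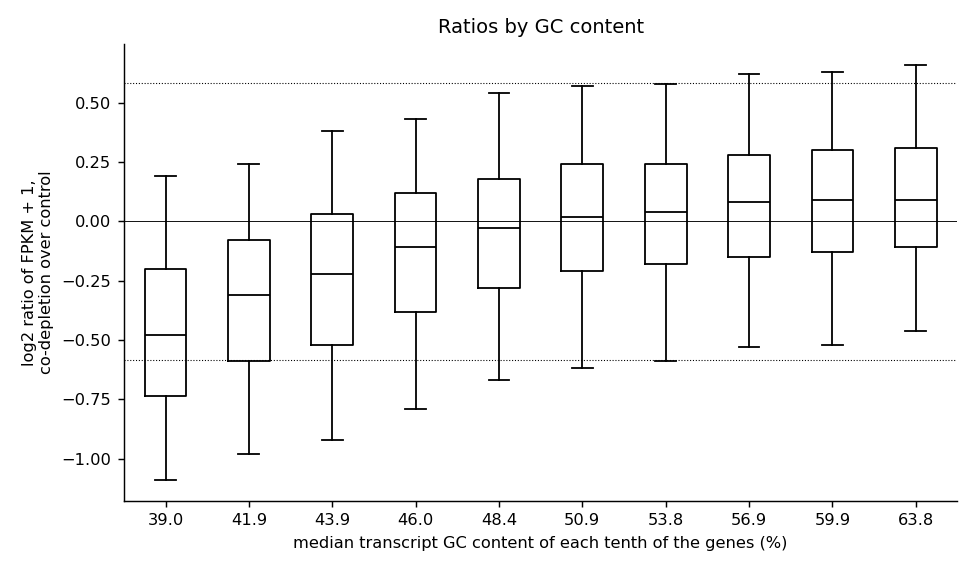
Log2 ratios of FPKM + 1, co-depletion over control, in 10 equal groups of genes ordered by transcript GC content, labelled by their median; boxes span the quartiles with the median as a line, whiskers the 5th to 95th percentile, and dotted lines 1.5-fold. Medians run from -0.48 in the group of lowest GC content to 0.09 in the group of highest.

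Cell cycle genes were lower more often than higher. Of 432 measured genes on the cell cycle lists, 127 were lower and 5 higher, and their median log2 ratio was -0.29, against 12.4% lower and a median of -0.06 over all genes. After adjustment for GC content 41 were lower and 5 higher, with a median of -0.15, beside 6.25% lower and 4.59% higher over all genes. The lists' median GC content was 45.2%, under the 49.7% of all genes. In bulk RNA, fewer cells in a phase of the cycle and less RNA per cell cannot be told apart. The FoxO3 depletion, which shares the control, had 134 lower and 7 higher, beside 17.2% lower and 3.80% higher over all genes in that comparison.

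Among genes of origin licensing, 7 of 29 were lower and 0 higher, beside 12.4% and 3.95% of all genes. After adjustment 2 were lower, close to the 6.25% of all genes. GMNN itself, a target of the depletion, was the lowest gene of the list. SKP2, a subunit of the ubiquitin ligase that marks CDT1 and p27 for destruction, was 34.3 FPKM in the control library, 30.6 after FoxO3 depletion and 19.4 after co-depletion, a ratio of 0.566 (0.496 to 0.644). CDT1, the licensing factor that Geminin binds, was 31.0, 34.7 and 22.5 FPKM, a ratio of 0.728 (0.643 to 0.823) that stayed within 1.5-fold. For GMNN, SKP2 and CDT1 the co-depletion was thus the lowest library, while the FoxO3 depletion lay nearer the control. The MCM2 helicase subunit was 83.5, 73.6 and 71.8 FPKM, the ORC1 subunit of the origin recognition complex 12.8, 13.8 and 12.4, and the loading factor CDC6 119, 137 and 124. These 3 licensing genes differed from the control by less than 1.5-fold in both depleted libraries.

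Of the replication fork genes, 8 of 44 were lower and 0 higher, 5 lower after adjustment. Over all genes 12.4% were lower, and 6.25% after adjustment. GINS3, a subunit of the replicative helicase complex, was 13.2, 9.66 and 6.08 FPKM in control, FoxO3 depletion and co-depletion, a ratio of 0.462 (0.357 to 0.592). POLA1, the catalytic subunit of DNA polymerase alpha, was 31.7, 15.2 and 14.8 FPKM, a ratio of 0.467 (0.419 to 0.519). CLSPN, which links the fork to the checkpoint kinase CHEK1, was 35.4, 17.1 and 18.4 FPKM. GINS3 was lowest in the co-depletion, and POLA1 and CLSPN were at similar levels in both depleted libraries. PCNA, the sliding clamp, was 152, 106 and 104 FPKM (log2 ratio -0.54), while POLE, the leading strand polymerase, was 51.4, 54.5 and 51.4 and CDC45, a helicase subunit, 38.1, 38.6 and 41.3. RRM2, the regulated subunit of ribonucleotide reductase, was 250.1, 350.1 and 311 FPKM, above the control in both depleted libraries but within 1.5-fold.

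Among the cell cycle lists, those of chromosome and centrosome structure had the largest shares of lower genes. Of 28 genes on the cohesin and condensin list 18 were lower (median log2 ratio -0.73). That list also holds TOP2A, MKI67, PTTG1 and ESPL1, which are not subunits of either complex. Of 34 centrosome and centriole genes 20 were lower (median -0.67), with 0 higher on either list, beside 12.4% lower over all genes. After adjustment the counts of lower genes were 5 and 7, with medians of -0.36 and -0.37, beside 6.25% of all genes. The lists' median GC contents were 41.1% and 41.8%. TOP2A, the topoisomerase that untangles sister chromatids, was 478 FPKM in the control library, 175 after FoxO3 depletion and 213 after co-depletion, a ratio of 0.446 (0.425 to 0.469). SMC4 and SMC2, the condensin ATPases, were 117, 47.4 and 57.4 FPKM and 45.4, 15.7 and 22.5 FPKM. Of the cohesin ring, SMC3 was 62.7, 26.7 and 34.2 FPKM and RAD21 334, 215 and 218, whereas SMC1A was 182, 183 and 169.9. The members of 1 complex were therefore not lower to the same extent: SMC1A stayed within 1.5-fold where SMC3 and RAD21 did not. Among centrosome genes, CEP350 was 40.0, 12.3 and 17.2 FPKM, the centriole assembly factor SASS6 6.58, 2.56 and 3.12, and pericentrin (PCNT) 48.2, 41.7 and 41.0.

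Kinetochore and spindle checkpoint genes were lower in 14 of 45 cases and mitotic kinesins and spindle genes in 10 of 27, again with 0 higher. After adjustment 5 and 3 were lower. The shares of all genes that were lower were 12.4% before and 6.25% after adjustment. CENPF, a large outer kinetochore protein, was 138 FPKM in the control library, 30 after FoxO3 depletion and 36.4 after co-depletion, a ratio of 0.264 (0.232 to 0.299), and its log2 ratio of -1.89 was -1.51 after adjustment. It was the second lowest coding gene of the comparison after MT1E, on the log2 scale. ASPM, a spindle pole protein, was 25.4, 7.83 and 10.2 FPKM. CENPE, the kinetochore motor, was 27.2, 9.31 and 13.6 FPKM, and KIF11, the motor that separates spindle poles, 41.2, 18.7 and 22. For all 4 of these genes both depleted libraries were below the control, and the FoxO3 depletion was the lower of the depleted libraries. CENPA, the centromeric histone, was 32.1, 39.3 and 32.2 FPKM, and MAD2L1, the checkpoint protein, 115, 88.8 and 96.1.

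Several regulators that drive entry into mitosis stayed near the control. Of 21 mitotic kinases and phosphatases 4 were lower and 1 higher, and of 24 cyclins and CDKs 5 were lower and 1 higher, with medians of -0.11 and 0.01, against 12.4% lower and 3.95% higher over all genes. After adjustment 0 kinases and phosphatases and 1 cyclin or CDK were lower, and 1 on each list was higher. CCNB1, cyclin B1, was 255, 268 and 239 FPKM, CCNA2, cyclin A2, 64.0, 63.3 and 63.7, and PLK1, the polo kinase, 111, 137 and 123. AURKA and AURKB, the Aurora kinases, were 127, 157 and 126 FPKM and 109, 133 and 119, and the transcription factor FOXM1 was 75.8, 83.7 and 82.4. In these 6 genes the co-depletion lay within 1.5-fold of the control. CDK1, the kinase that cyclin B1 activates, was an exception at 122, 58.2 and 67.8 FPKM, a ratio of 0.556 (0.517 to 0.597), with a log2 ratio of -0.84 that was -0.30 after adjustment. CDK6, a G1 kinase, was 47.5, 22.8 and 28.1 FPKM (log2 ratio -0.74, -0.73 after adjustment).

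The few higher cell cycle genes included both activators and an inhibitor. CDC25A, the phosphatase that activates CDK2 and CDK1, was 30.7 FPKM in the control library, 64.8 after FoxO3 depletion and 55.9 after co-depletion, a ratio of 1.82 (1.61 to 2.06). CCND3, cyclin D3, was 269, 425 and 439 FPKM, a ratio of 1.63 (1.57 to 1.70). CDKN1B, the CDK inhibitor p27 and a known FoxO target, was 38.3, 59.7 and 58.6 FPKM, a ratio of 1.53 (1.38 to 1.70). All 3 were above the control in both depleted libraries. RBL2, the pocket protein p130 and another known FoxO target, was 14.6, 7.16 and 6.49 FPKM, a ratio of 0.446 (0.368 to 0.538), and RB1 was 56.5, 30 and 36.8. RBL2 shares exon bases with AKTIP, so its reads are uncertain. CDKN1A, the inhibitor p21, was 97.4, 107 and 115 FPKM, and CDKN2A and CDKN2B were listed at 0 in all 3 libraries.

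Some genes of each DNA repair list were lower. Of 33 homologous recombination and Fanconi genes 13 were lower (4 after adjustment) and of 26 DNA damage checkpoint genes 9 (2 after adjustment). Of 32 genes of mismatch, excision and end-joining repair 7 were lower (1 after adjustment), with 0 higher on any of these lists. Over all genes 12.4% were lower, and 6.25% after adjustment. The adjusted counts of the checkpoint list and of the mismatch, excision and end-joining list were near or under that last share. BRCA1, which with BARD1 acts in repair by homologous recombination, was 17.4 FPKM in the control library, 4.92 after FoxO3 depletion and 5.43 after co-depletion, a ratio of 0.311 (0.263 to 0.367) and a log2 ratio of -1.52, -1.28 after adjustment. BRCA2, which acts in the same repair pathway, was 8.71, 2.64 and 3.45 FPKM, and the helicase BRIP1 29.3, 9.68 and 12.3. The 3 genes were lower in both depleted libraries. ATM and ATR, the damage kinases, were 50.7, 17.7 and 25.6 FPKM and 18, 5.64 and 8.24, and CHEK1 was 77.8, 40.9 and 44.2. After adjustment the log2 ratio of ATM was -0.48 and that of ATR -0.54, short of 1.5-fold. Of 25 p53 targets 3 were higher and 3 lower, the latter close to the 12.4% of all genes that were lower, and after adjustment 3 were higher and 0 lower. GADD45A was 55.9, 112 and 108 FPKM and CCNG1 48.7, 26.8 and 24.5.

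For the list of replication-dependent histone genes the median and the counts differed in sign. The list also holds NPAT and SLBP, which are not histones, and NPAT had 1 of its 6 largest ratios. Of 15 measured, 0 were higher and 2 lower, close to the 12.4% of all genes that were lower, and the median was 0.22. After adjustment the counts were the same, and HIST1H1C was 54.0, 78.6 and 65.0 FPKM. Histone genes are near-identical copies, most of their transcripts lack a poly(A) tail and only part of the family was measured, so these values are uncertain.

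**Figure D3:**
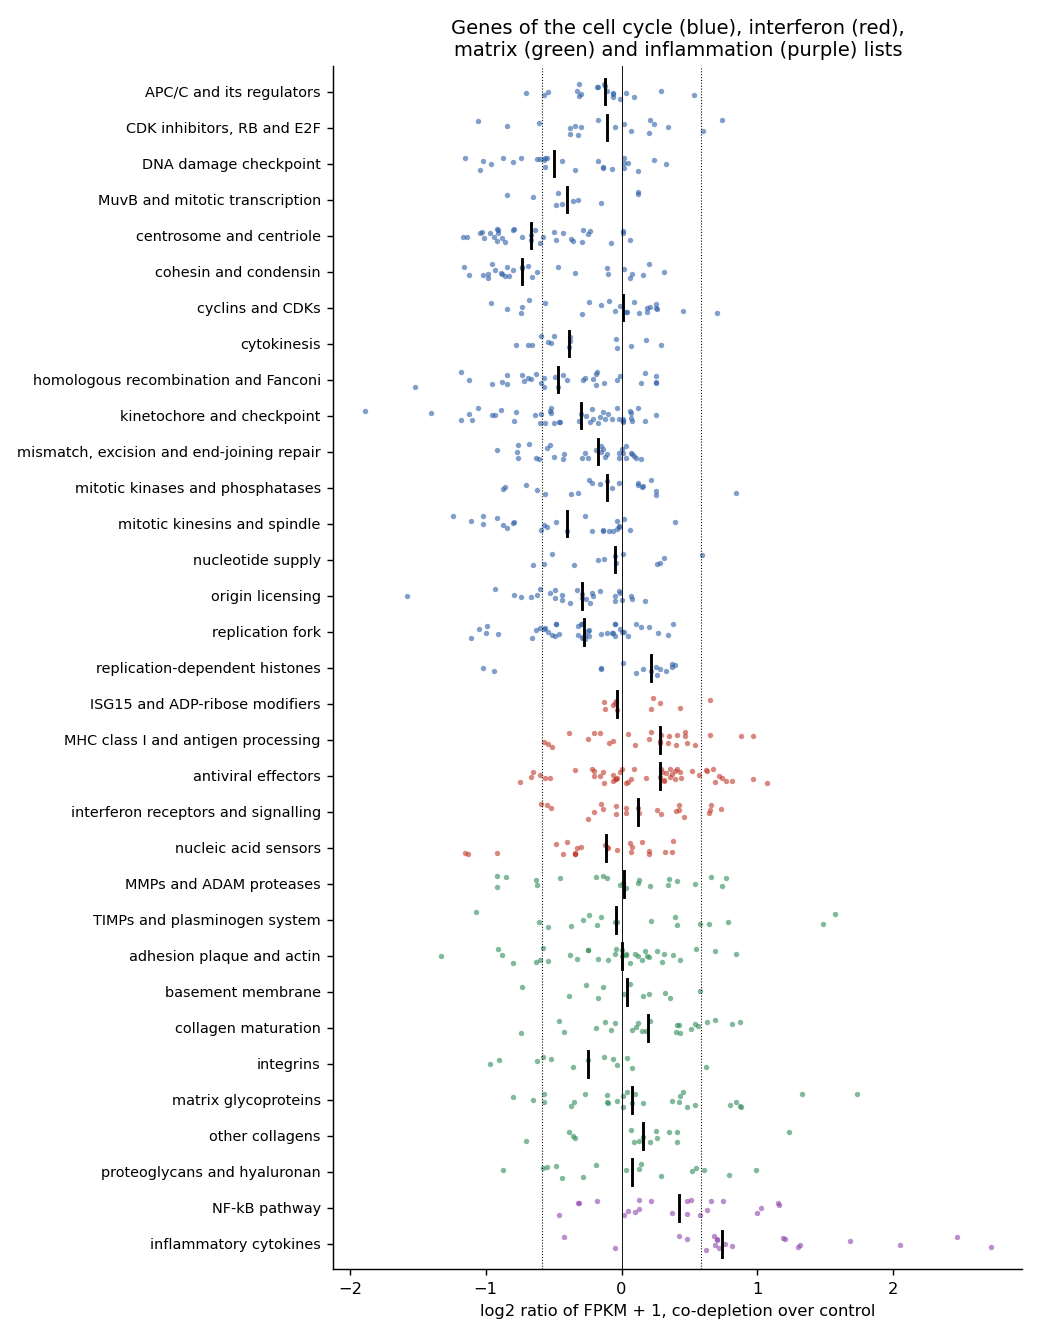
Log2 ratios of FPKM + 1 (co-depletion over control) of the measured genes of each list, 1 point per gene, with the list's median as a black bar and dotted lines at 1.5-fold. Points of the cohesin and condensin list (median -0.73) and of the centrosome list (median -0.67) lie mostly left of 0, and those of the inflammatory cytokines (median 0.74) mostly right of it.

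Promoters of 2 of the lower cell cycle genes are shown because promoters of such genes often carry the cell cycle homology region (CHR), bound by the MuvB complex, next to CCAAT boxes, bound by NF-Y. RefSeq windows (GRCh38.p14) from 250 bases before to 50 after the start were matched by symbol to 9929 of the 12773 genes, with the first listed start of each gene, and both strands were searched. The 250 bases before the start of CENPF are chr1:214602945-214603194 (plus strand) and those of TOP2A chr17:40417897-40418146 (minus strand). They are printed 5′ to 3′ on the gene's strand, with TTTGAA (CHR) and CCAAT, or their reverse complements, in capitals.
CENPF: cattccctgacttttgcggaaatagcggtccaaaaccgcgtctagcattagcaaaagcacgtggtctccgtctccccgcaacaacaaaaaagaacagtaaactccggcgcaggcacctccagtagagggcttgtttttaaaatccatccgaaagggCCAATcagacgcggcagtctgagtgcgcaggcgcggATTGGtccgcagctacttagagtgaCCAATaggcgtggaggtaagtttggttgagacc
TOP2A: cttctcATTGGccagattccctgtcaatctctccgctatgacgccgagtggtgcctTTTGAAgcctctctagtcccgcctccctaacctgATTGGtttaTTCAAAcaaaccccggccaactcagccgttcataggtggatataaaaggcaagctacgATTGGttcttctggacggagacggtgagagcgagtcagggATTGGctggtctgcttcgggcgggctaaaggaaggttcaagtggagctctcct
The CENPF stretch held 3 CCAAT boxes, and its match to TTTGAA began at base 41 after the start, outside the printed stretch. TOP2A held 4 CCAAT boxes and 2 matches to TTTGAA in the printed stretch. TTTGAA was in 15.4% of all 27305 RefSeq windows, in 9.54% of the windows of the analysed genes, in 24.5% of 371 cell cycle windows and in 33.3% of the 111 windows of lower cell cycle genes. CCAAT was in 35.7% of all windows, 53.1% of the cell cycle windows and 45.9% of those of lower cell cycle genes, and the E2F motif, TTCCCGC or TTGGCGC, in 9.33%, 33.4% and 28.8%. Matches are descriptions of letters: TTTGAA is itself rich in A and T, as the lower genes are.

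Most interferon genes lay within 1.5-fold, and those past it were more often higher than lower. Of 135 measured genes on the interferon lists, 17 were higher and 8 lower (median log2 ratio 0.08), against 3.95% higher and 12.4% lower over all genes. After adjustment 16 were higher and 4 lower, with a median of 0.21, beside 4.59% higher and 6.25% lower over all genes. The FoxO3 depletion had 8 higher and 19 lower against the same control, beside 3.80% higher and 17.2% lower over all genes in that comparison. Set directly against the FoxO3 depletion, the co-depletion had 3 interferon genes higher and 0 lower, beside 1.62% higher and 0.478% lower over all genes. The FoxO3-depleted library had no part in the minimum that chose these genes.

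Among 51 antiviral effectors 10 were higher and 4 lower, with a median of 0.28, beside 3.95% higher and 12.4% lower over all genes. OASL, an oligoadenylate synthetase-like protein, was 65.6 FPKM in the control library, 110.2 after FoxO3 depletion and 129.9 after co-depletion, a ratio of 1.98 (1.85 to 2.12). IFIT1 and IFIT2, which bind foreign RNA, were 79.9, 117 and 134 FPKM and 57.5, 72.3 and 91.9. GBP4, a guanylate-binding GTPase, was 10.3, 20.1 and 22.6 FPKM, a ratio of 2.21 (1.94 to 2.51), the single interferon gene past 2-fold upward. By FPKM alone, these 4 genes were ordered control, FoxO3 depletion, co-depletion. A second pattern appeared in OAS1, which makes the 2-5A that activates RNase L: it was 5.93, 6.04 and 10.8 FPKM, a ratio of 1.83 (1.39 to 2.41), so that the FoxO3 depletion stayed at the control's level. IFI27 likewise was 47.9, 46.3 and 69.1 FPKM, short of 1.5-fold at a log2 ratio of 0.52. ISG20, an exonuclease, was 10.1, 12.9 and 18.6 FPKM. MX1 and OAS3, further effectors, were 15.6, 22.1 and 19.9 FPKM and 54.9, 49.6 and 56.7, and ISG15, the ubiquitin-like modifier, was 275, 379 and 370.2. Each of these 3 stayed within 1.5-fold of the control. The lower effectors were DDX60 at 37.7, 14.8 and 22 FPKM, GBP2 at 13.5, 6.99 and 8.12, SLFN5 at 2.49, 1.11 and 1.23, and SP100 at 38.6, 21.1 and 25.2. GBP2, SLFN5 and SP100 are named after their values were seen, to complete the count. After adjustment none of these 4 passed 1.5-fold, and 10 effectors were higher, beside 4.59% higher and 6.25% lower over all genes.

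Antigen presentation genes were above the control, by any amount, in 18 of 27 cases. Of the 27, 3 were higher and 0 lower, beside 3.95% and 12.4% of all genes, and the median was 0.28. After adjustment 2 were higher and 2 lower. TAP1, the peptide transporter of the endoplasmic reticulum, was 43.9, 81.0 and 87.0 FPKM, a ratio of 1.98 (1.85 to 2.12). HLA-B was 418, 599 and 655 FPKM and HLA-F 3.18, 6.14 and 6.67. The HLA genes are near copies of each other, so reads could be split between them. B2M, their shared light chain, was 690.2, 748 and 795 FPKM, and CD274, the checkpoint ligand PD-L1, 16.4, 14.3 and 14.1.

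Sensors and signalling genes differed from gene to gene. Of 24 nucleic acid sensors 0 were higher and 3 lower, close to the 12.4% of all genes that were lower, and of 23 receptor and signalling genes 4 were higher and 1 lower. Over all genes 3.95% were higher. After adjustment 1 sensor was higher and 2 were lower, and 2 receptor and signalling genes were higher and 0 lower. The shares of all genes were then 4.59% higher and 6.25% lower. IFI16, a DNA sensor, was 48.6, 18.9 and 25.2 FPKM, a ratio of 0.518 (0.472 to 0.569), and TLR6 was 6.91, 2.54 and 2.56, with TLR1, which overlaps it, also lower. CGAS, the sensor of cytosolic DNA, was 35.4, 53.3 and 46.0 FPKM, and IFIH1, a sensor of long RNA duplexes, 12.8, 10.8 and 14.3. IRF1, an interferon regulatory factor, was 45.6, 71.4 and 76.3 FPKM, a ratio of 1.67 (1.55 to 1.81), and SOCS3, a feedback inhibitor of cytokine receptors, 40.3, 75 and 64.4.

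None of the 10 listed interferon ligand genes reached the minimum of 1 FPKM. IFNB1 and IFNA1 were listed at 0 in all 3 libraries. IFNL1, a type III interferon that is below the minimum and is named after its values were seen, was listed at 0 in the control and the FoxO3 depletion and at 1.33 FPKM in the co-depletion, from 14 reads. With a floor of 3 reads put in place of 0 in the control library, the ratio was 5.52. That value leaves out the counting error of the 14 reads and is not a lower limit.

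Of 42 measured genes of inflammation 23 were higher and 0 lower (median 0.64), beside 3.95% and 12.4% of all genes. After adjustment 22 were higher and 0 lower, beside 4.59% and 6.25% of all genes. In the FoxO3 depletion 20 were higher and 3 lower, beside 3.80% and 17.2% of all genes in that comparison. The gene lists were chosen with earlier results of these data known, so these counts are descriptions and not independent evidence. CXCL10, a chemokine that interferon induces, was 0.411 FPKM in the control library, 4.91 after FoxO3 depletion and 8.27 after co-depletion, from 7 reads in the control and 119 in the co-depletion, a ratio of 20.1 (9.46 to 51.1). It had the highest log2 ratio of the comparison, 2.72, and passed the minimum only through the co-depletion. IL6 was 5.46, 27.3 and 25.8 FPKM, a ratio of 4.71 (3.64 to 6.18), and the acute-phase gene SAA1 33.0, 207 and 187. SAA1 and SAA2 (2.59, 9.53 and 10.5 FPKM) are near-identical copies, so the split between them is uncertain. CXCL1, a neutrophil chemokine, was 3.55, 7.23 and 9.36 FPKM, CXCL8 14.5, 20.8 and 25.2, and the IL6-family cytokine IL11 57, 167 and 141. CSF1, the macrophage growth factor, was below the control at 263, 172 and 197 FPKM (log2 ratio -0.42). Of 22 NF-kB pathway genes 7 were higher and 0 lower (6 and 0 after adjustment): NFKB2 was 50.5, 102 and 104 FPKM, BIRC3 23.4, 42.8 and 53.3, and ICAM1, the leukocyte adhesion molecule, 13.6, 24.2 and 31.5, while NFKB1 was 40.7, 49.1 and 44.6.

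Promoters of 4 of the higher genes are shown because they carry the letters of the interferon-stimulated response element (ISRE, searched as GAAA, 2 bases of any kind and GAAA) or of the NF-kB site. The 250 bases before the start are chr4:76023498-76023747 (minus strand) for CXCL10, chr10:89392373-89392622 (plus strand) for IFIT1, chr6:32853705-32853954 (minus strand) for TAP1 and chr4:73869143-73869392 (plus strand) for CXCL1. ISRE and NF-kB matches on either strand are in capitals.
CXCL10: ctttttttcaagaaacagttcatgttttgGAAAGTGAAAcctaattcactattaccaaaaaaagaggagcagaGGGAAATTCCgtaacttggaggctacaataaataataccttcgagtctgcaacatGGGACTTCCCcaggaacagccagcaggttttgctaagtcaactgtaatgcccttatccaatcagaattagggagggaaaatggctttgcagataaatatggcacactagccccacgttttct
IFIT1: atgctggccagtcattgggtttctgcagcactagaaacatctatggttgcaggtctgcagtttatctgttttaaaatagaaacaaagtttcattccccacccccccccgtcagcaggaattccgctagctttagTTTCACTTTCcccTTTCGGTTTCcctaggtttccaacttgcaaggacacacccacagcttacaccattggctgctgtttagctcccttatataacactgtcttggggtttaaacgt
TAP1: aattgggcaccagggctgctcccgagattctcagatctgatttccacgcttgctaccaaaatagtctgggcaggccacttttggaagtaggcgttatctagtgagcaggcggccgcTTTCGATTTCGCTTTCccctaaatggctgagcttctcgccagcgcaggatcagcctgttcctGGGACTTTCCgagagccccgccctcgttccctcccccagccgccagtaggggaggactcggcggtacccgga
CXCL1: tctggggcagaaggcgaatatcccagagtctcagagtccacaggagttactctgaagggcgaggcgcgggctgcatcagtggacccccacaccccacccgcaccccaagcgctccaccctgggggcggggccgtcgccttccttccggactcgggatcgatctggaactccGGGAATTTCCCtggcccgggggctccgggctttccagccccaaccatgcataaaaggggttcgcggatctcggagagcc
CXCL10 held 1 ISRE match followed by 2 NF-kB matches, IFIT1 held 2 ISRE matches, TAP1 held 2 overlapping ISRE matches and, within the printed stretch, 1 NF-kB match, and CXCL1 held 2 overlapping NF-kB matches. The ISRE letters were in 3.65% of all RefSeq windows, in 2.84% of those of the analysed genes and in 70.3% of 37 windows of antiviral effectors. The 47 windows with it among 99 interferon windows belonged to genes with a median log2 ratio of 0.28, of which 7 were higher and 1 lower. Over all analysed genes with it, 282 in number, the median was -0.02, with 21 higher and 38 lower. The NF-kB motif was in 10.8% of all windows, 12.9% of those of analysed genes and 61.5% of 13 windows of inflammatory cytokines.

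Of 188 measured genes on the matrix lists 26 were higher and 22 lower (median 0.06), and 28 and 20 after adjustment. Over all genes 3.95% were higher and 12.4% lower, so the share of matrix genes that were lower was close to that of all genes and the share that were higher was above it. After adjustment 4.59% of all genes were higher and 6.25% lower, both below the matrix shares. Counts of the single matrix lists below stand beside the same shares of all genes. The FoxO3 depletion had 26 higher and 34 lower, beside 3.80% higher and 17.2% lower over all genes in that comparison.

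Of 29 matrix glycoproteins 6 were higher and 2 lower, and after adjustment 6 and 3. THBS1, thrombospondin-1, was 559.6 FPKM in the control library, 2368 after FoxO3 depletion and 1855 after co-depletion, a ratio of 3.32 (3.25 to 3.38). CYR61 and CTGF, matricellular proteins of the CCN family, were 482, 1304 and 1214 FPKM and 139, 266 and 242. FBN1, the microfibril protein fibrillin-1, was 20.6, 40.2 and 38.3 FPKM, a ratio of 1.86 (1.66 to 2.09). By FPKM alone, the FoxO3 depletion was the highest of the 3 libraries in all 4. FN1, fibronectin, had a log2 ratio of 0.08.

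Of 4 measured fibrillar collagen chains 2 were higher and 0 lower, and of 15 other collagens 1 was higher and 1 lower, with the same counts after adjustment. COL5A1, a fibrillar collagen chain, was 132, 234 and 259 FPKM, a ratio of 1.95 (1.88 to 2.04), and COL1A1 was 13.4, 25.3 and 24.3. COL1A2, which joins COL1A1 in type I collagen, was 10.3, 14.2 and 13.6 FPKM. The chains of basement membrane collagen IV differed: COL4A1 was 16.1, 40.1 and 39.3 FPKM, a ratio of 2.43 (2.12 to 2.80), whereas COL4A2 was 101, 114 and 111, a ratio of 1.1 (1.03 to 1.18). Their intervals did not overlap, although the chains assemble together and their genes lie head to head. Of 24 collagen maturation genes 4 were higher and 1 lower, before and after adjustment. SERPINH1, the collagen chaperone HSP47, was 225, 449.9 and 412 FPKM, the prolyl hydroxylase P4HA2 29.8, 48.2 and 52.9, and the crosslinking enzyme LOXL2 389, 563 and 601. LOXL1, of the same family as LOXL2, was lower at 9.91, 6.14 and 5.55 FPKM and shares exon bases with LOXL1-AS1. PLOD2, a lysyl hydroxylase, was 54.0, 67.8 and 80.1 FPKM, with a log2 ratio of 0.56 that was 1.1 after adjustment. CEMIP, which degrades hyaluronan, was 65.3, 98.4 and 130.4 FPKM, a ratio of 2.0 (1.92 to 2.08), highest in the co-depletion.

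Of 18 genes of the list of metalloproteinase inhibitors and the plasminogen system 4 were higher and 2 lower, before and after adjustment. F3, tissue factor, which starts clotting, was 235, 738 and 697 FPKM, a ratio of 2.97 (2.87 to 3.07), and TFPI, its inhibitor, was 32.1, 12.7 and 14.8, a ratio of 0.461 (0.404 to 0.525). PLAU, a plasminogen activator, was 205, 264 and 268 FPKM. TIMP1, an inhibitor of metalloproteinases, was 432, 374 and 424 FPKM. Of 22 metalloproteinases and ADAM proteases 3 were higher and 5 lower (3 and 3 after adjustment): MMP1, interstitial collagenase, was 32.0, 14.2 and 16.4 FPKM, MMP14 629.9, 548 and 584, and ADAMTS15 33.8, 53.8 and 57.1.

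Of 13 integrins 1 was higher and 3 lower (median -0.25), and of 35 plaque and actin genes 2 were higher and 6 lower, where 3.95% of all genes were higher and 12.4% lower. After adjustment 0 integrins were higher and 2 lower, and 3 plaque and actin genes were higher and 5 lower. ITGA2, a collagen receptor subunit, was 123, 58.0 and 65.4 FPKM, a ratio of 0.533 (0.512 to 0.555), and ITGA5, the fibronectin receptor subunit, was 138, 215 and 213, a ratio of 1.54 (1.47 to 1.62). ITGB1, their shared partner, was 1322, 846 and 1033 FPKM, within 1.5-fold. ROCK2 and ROCK1, the kinases that raise actomyosin tension, were 70.8, 23.1 and 27.6 FPKM and 80.6, 36.6 and 43.3; the log2 ratio of ROCK1, -0.88, was -0.34 after adjustment. FLNA, the actin crosslinker filamin A, was 1238, 911 and 948 FPKM.

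**Figure D4:**
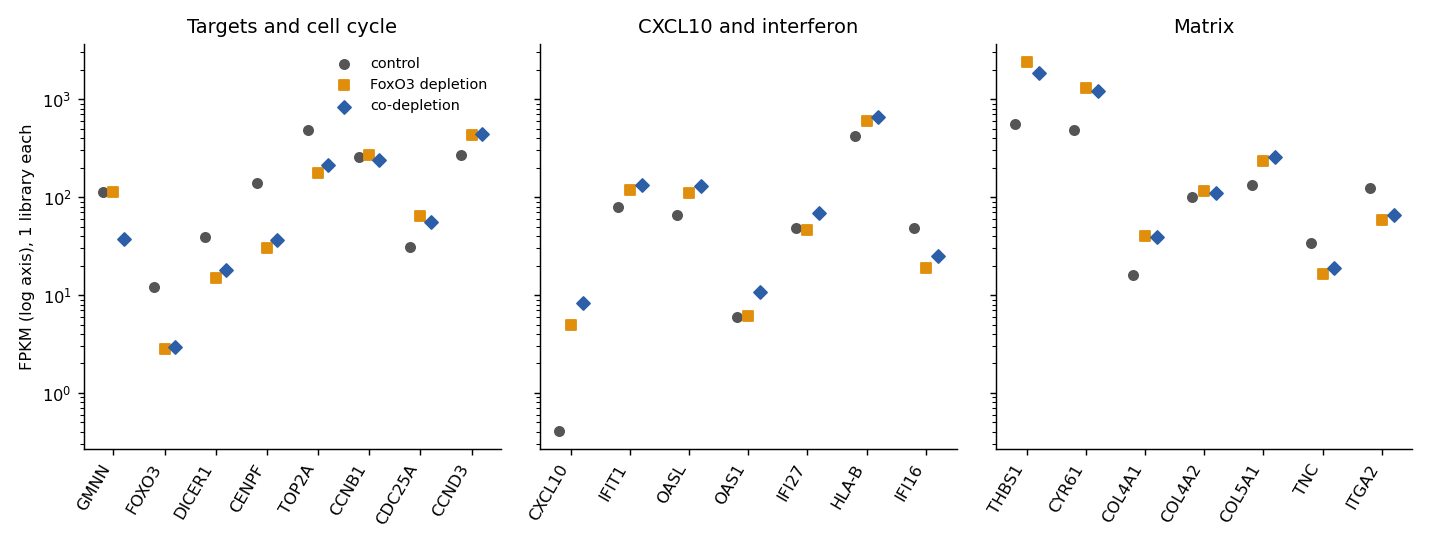
FPKM (log axis) of genes named in the text and of TNC, a matrix glycoprotein, in the control (grey circles), the FoxO3 depletion (orange squares) and the co-depletion (blue diamonds), 1 library each, with no error bars. GMNN is low in the co-depletion alone (37.0 FPKM against 112 in each other library), and OAS1 is high there alone (10.8 against 5.93 and 6.04), while IFI27 shows the same order with smaller differences.

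Signalling genes with matrix or inflammatory targets also differed in both directions. Their counts stand beside 3.95% higher and 12.4% lower over all genes, and 4.59% and 6.25% after adjustment. Of 21 YAP and TEAD genes 7 were higher and 4 lower, before and after adjustment. ANKRD1, a nuclear target of YAP, was 179.7, 556 and 516 FPKM, a ratio of 2.87 (2.78 to 2.96), while WWTR1, which encodes TAZ, was lower at 115, 67.5 and 69.4 and YAP1 was 100.2, 88.4 and 72.3. Of 28 TGF-beta and BMP genes 9 were higher and 3 lower (7 and 2 after adjustment): ID3, an inhibitor of bHLH factors, was 12.9, 44.1 and 48.7 FPKM, BMP4 262, 507 and 536, TGFB2 48.5, 85.7 and 93.7, and SMAD5, a BMP signal carrier, 51.3, 17.2 and 20.1. Of 26 immediate early and MAPK feedback genes 5 were higher and 0 lower, before and after adjustment: DUSP1, a MAP kinase phosphatase, was 12.4, 48.8 and 38.8 FPKM, ATF3 6.84, 18.9 and 15.8, and JUNB 13.3, 26.3 and 28.8, while JUN was 68.8, 53.9 and 54.2. ANKRD1 and F3 are shown as examples of higher genes whose windows hold letters of AP-1 (TGANTCA) or TEAD (GGAATG) sites, at chr10:90921088-90921337 (minus strand) and chr1:94541760-94542009 (minus strand), with AP-1 and, in ANKRD1, TEAD matches in capitals.
ANKRD1: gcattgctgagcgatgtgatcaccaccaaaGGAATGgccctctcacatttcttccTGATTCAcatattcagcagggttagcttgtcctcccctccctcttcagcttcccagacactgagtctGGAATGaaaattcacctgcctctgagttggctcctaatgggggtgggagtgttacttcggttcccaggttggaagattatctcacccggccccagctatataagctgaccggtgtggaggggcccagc
F3: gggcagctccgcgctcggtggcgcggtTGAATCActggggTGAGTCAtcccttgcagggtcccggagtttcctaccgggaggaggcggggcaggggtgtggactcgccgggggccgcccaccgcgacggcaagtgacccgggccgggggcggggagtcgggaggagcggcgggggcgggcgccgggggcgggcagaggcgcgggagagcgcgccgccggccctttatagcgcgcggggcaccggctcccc
TGANTCA was in 7.76% of all RefSeq windows, 4.43% of those of analysed genes and 12.7% of the 55 windows of genes at least 2-fold higher, and GGAATG in 14%, 10.7% and 14.5%. Of the 222 windows of genes at least 2-fold lower, 4.50% held TGANTCA.

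Of 32 measured genes of the FOXO family and its targets 2 were higher and 11 lower (median -0.20), beside 3.95% and 12.4% of all genes, and after adjustment 2 were higher and 7 lower. The list is not of targets alone: the lower genes include FOXO3 itself, FOXO4 and the kinase pathway genes PIK3CA and RICTOR. SESN3, a sestrin, was 7.26, 2.12 and 2.55 FPKM, a ratio of 0.351 (0.269 to 0.453), FOXO4 8.11, 2.52 and 3.62, and CCNG2, cyclin G2, 17.5, 12 and 10.1. BCL2L11, the death gene BIM, was 25.7, 25.7 and 24.8 FPKM, within 1.5-fold. FOXO1 was 3.59, 2.86 and 3.25 FPKM. Letters of the FOXO motif, GTAAACA, were in 2.23% of the windows of analysed genes and in 10 of the 222 windows of genes at least 2-fold lower, a share of 4.50%, in 5.45% of the 55 windows of genes at least 2-fold higher and in 3.41% of all RefSeq windows.

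All 6 measured genes of the metallothionein and zinc list were lower, before and after adjustment, with a median of -1.11. This list too was chosen with earlier results of these data known, so its count is a description and not independent evidence. MT1E, a zinc-binding metallothionein, was 138, 29.4 and 29.5 FPKM, a ratio of 0.214 (0.164 to 0.276) and the lowest log2 ratio of any coding gene, -2.19. MT2A was 741, 365 and 341 FPKM, SLC30A1, the zinc exporter, 12.6, 3.92 and 4.93, and MTF1, the zinc-sensing factor that drives them, 8.68, 4.74 and 5.02. Metallothionein genes are near copies of each other. The 3 muscleblind splicing regulators were also lower in both depleted libraries: MBNL1 was 70.3, 17.8 and 20.3 FPKM, MBNL2 27.4, 8.09 and 9.84, and MBNL3 6.91, 1.15 and 1.77. SRSF1, a general splicing factor, was 213, 198 and 186.

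Among the other genes with the lowest log2 ratios were HSD17B12, an enzyme of fatty acid elongation, at 95.4, 20.8 and 26.4 FPKM, MRPL10, a mitochondrial ribosomal protein, at 28.3, 7.05 and 7.5, MET, the HGF receptor, at 134, 41.3 and 45.1, and FGF5 at 19.6, 5.49 and 5.29. Among the highest were ADM, adrenomedullin, at 28.3, 103 and 87.0 FPKM, FST, the activin antagonist follistatin, at 51.1, 151 and 130.2, CLDN1, a tight junction protein, at 1.94, 6.79 and 7.0, and PPME1, a methylesterase of the phosphatase PP2A, at 57, 209 and 163. PPME1 shares exon bases with C2CD3. RAET1L, a stress ligand of natural killer cells, rested on 3 control reads and 13 reads after co-depletion, and the interval of its ratio ran from 1.41 to 28.0. In every gene named in this paragraph both depleted libraries lay on the same side of the control, and they share that control library.

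EEF1A1, the translation elongation factor, was 5445 FPKM in the control library, 7300.5 after FoxO3 depletion and 6802 after co-depletion, and RPLP0, a ribosomal stalk protein, 1997, 2673 and 2677. Of 47 ribosomal protein genes 0 were higher and 1 lower (0 and 0 after adjustment), and the median log2 ratio was 0.26. The largest differences downward in FPKM included the mitochondrial MT-CO2 at 5855, 4106 and 4287 and the chromatin protein HMGA1 at 1550, 940 and 910.2, the latter a ratio of 0.587 (0.577 to 0.598). The 13 mitochondrially encoded genes as a list had 0 higher and 0 lower.

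Set beside the FoxO3 depletion, the co-depletion gave similar counts upward and fewer downward. Over the same 12773 genes the FoxO3 depletion had 486 (3.80%) higher and 2193 (17.2%) lower at 1.5-fold, and 80 (0.626%) higher and 684 (5.36%) lower at 2-fold. Both comparisons use the same control library, so their values stand side by side and no overlap is given. After the same adjustment for GC content the FoxO3 depletion had 5.86% higher and 9.52% lower at 1.5-fold, and 0.947% and 1.80% at 2-fold. Directly between the depleted libraries, 207 genes (1.62%) were higher in the co-depletion and 61 (0.478%) lower, and at 2-fold 0.164% and 0.0313%. The minimum used the control and co-depletion values, so genes high in the FoxO3 depletion alone are left out, which tilts these counts upward. Of the 207 and the 61, 80 and 28 lay among the 1278 genes with the lowest mean FPKM. Among the cell cycle lists 2 were higher and 5 lower in that direct comparison, and among the matrix lists 4 and 1. The list medians over the control were lower in the FoxO3 depletion for cohesin and condensin (-0.97 against -0.73) and for the centrosome (-0.83 against -0.67), and nearer 0 for antiviral effectors (0.02 against 0.28).

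**Figure D5:**
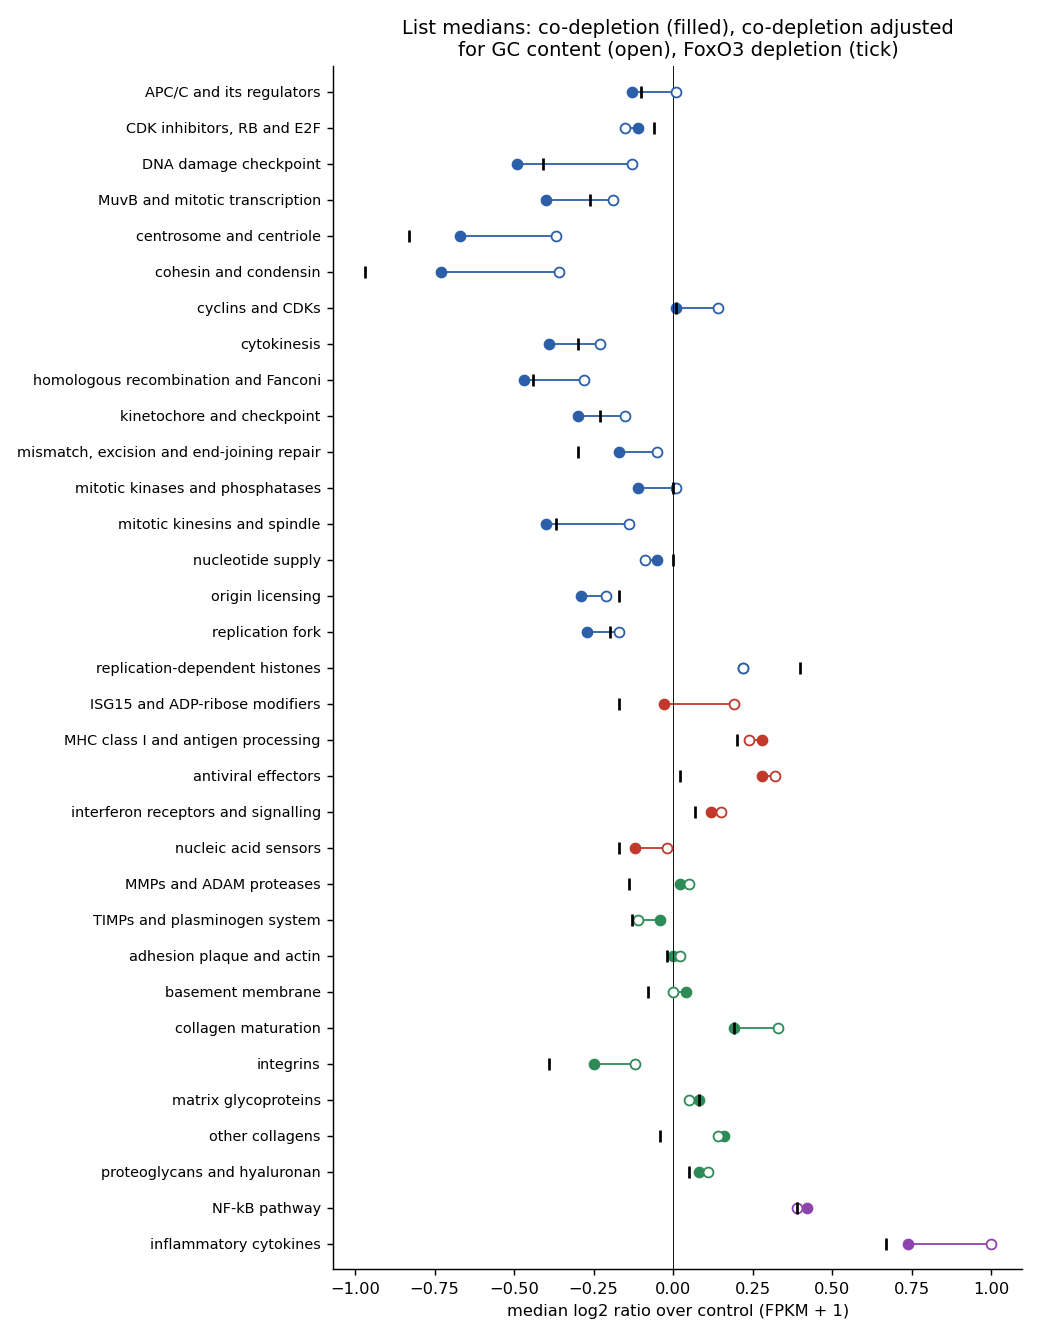
Median log2 ratio over the control for each list: co-depletion (filled circles), co-depletion after subtraction of the running median along GC content (open circles) and FoxO3 depletion without that subtraction (black ticks). Cell cycle lists such as cohesin and condensin shift from -0.73 to -0.36 with the adjustment, while antiviral effectors stay at 0.28 and 0.32.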

How the data were processed

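RNA was sequenced from 1 library each of control, FoxO3-depleted and co-depleted cells. The authors deposited FPKM per Ensembl gene, 1 file per library; the submitters' processing notes name TopHat2 2.0.9, with the read counter, build, annotation and strand use not given in the sources used here. Values of overlapping genes, antisense pairs and close copies are therefore uncertain. Members and gene lists were chosen with earlier results of these data known.

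GENCODE 29 held 45342 of the 48162 IDs and gave symbols, classes, transcript lengths and base composition. Symbols that matched no entry were not analysed here, and some listed genes are not reported here. Ratios were log2 of FPKM + 1 (pseudocount 1), for genes with a mean of at least 1 FPKM over the control and the co-depletion; lists were counted at 1.5-fold and all genes also at 2-fold. For GC content, the running median of the ratio over 50 bins was subtracted. Library totals came from the commonest product of FPKM and length of single-transcript genes, and whole reads were then found for 20536 of 20591 genes (99.7%) above 0 in at least 2 libraries, at a relative tolerance of 4e-09, against 0.750% of 2000 random values; the search stopped at 60000 reads, and 12770 of the 12773 genes had recovered reads. Recovered reads can be the true ones divided by a common factor, so intervals can be too wide. Of the 12773 genes, 3202 share exon bases with another.

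Named genes were GMNN, FOXO3 and DICER1, the 25 highest and 25 lowest log2 ratios of coding genes, 8 each of other genes, the 12 largest rises and falls in FPKM, and in each of 72 lists the marked members and the 6 largest ratios. Scripts ran in Python 3.11.15 with numpy 2.4.6, pandas 2.3.3, scipy 1.17.1 and matplotlib 3.10.9, and were tested on simulated data. Alternatives were other pseudocounts, minimums, scalings, folds and gene sets, and adjustment for GC content and length.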

Additional observations from a re-analysis of the deposited data

How the results depend on the processing

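No paired analysis was possible because each group holds 1 library, and for the same reason no library could be left out. The count of genes at least 2-fold higher, 79, became 138 with a pseudocount of 0.1, 504 at 1.5-fold and 9 at 3-fold. The count at least 2-fold lower, 293, became 580 with a pseudocount of 0.1, 132 after adjustment for GC content, 130 after adjustment for GC content and length, 1580 at 1.5-fold and 17 at 3-fold. Of the 293, 118 were still past 2-fold after adjustment for GC content, and of the 79, 68. The cell cycle count of 127 lower genes became 41 after adjustment for GC content, 40 for GC content and length, and 30 at 2-fold. At 2-fold the interferon count of 17 higher became 1, and the matrix counts of 26 higher and 22 lower became 5 and 2. All other alternatives, including leaving out genes that share exon bases, an alternative chosen after seeing the data, left these counts within 1.5 times. No named gene past 2-fold changed direction under the alternatives run. Depth limits low genes: 9 of the 79 and 19 of the 293 had under 20 recovered reads over both libraries.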

Other observations

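Of the 13075 genes, 302 had no entry in GENCODE 29 and so no symbol. At 1.5-fold 21 of them were higher and 40 lower in the co-depletion, with a median log2 ratio of -0.12, and at 2-fold 5 were higher and 11 lower.

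Of 210 measured zinc finger genes of chromosome 19, 49 were lower and 1 higher at 1.5-fold, with a median log2 ratio of -0.41, where 12.4% of all genes were lower and 3.95% higher. After subtraction of the running median along GC content 20 were lower and 1 higher, with a median of -0.25, beside 6.25% lower and 4.59% higher over all genes. Ratios also moved with genomic span: of the 1277 genes with the longest spans 230 were lower and 40 higher, with a median of -0.19, and of the 1278 with the shortest 117 were lower and 84 higher. After the same adjustment 107 of the longest were lower and 62 higher (median -0.05), and 98 of the shortest were lower and 90 higher (median 0.02). The counts of lower genes were then close.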
